A study of Mus musculus with 10 samples.

Results

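The genes encoded by the mitochondrial genome were examined in cells sorted as meningeal lymphatic endothelial cells (LECs) from stressed and naive mice. They were taken as every gene of the deposited count table whose symbol starts with lower-case mt-, which gave 37 of 55401 genes: 13 protein genes, 2 ribosomal RNA (rRNA) genes and 22 transfer RNA (tRNA) genes. The cells were sorted as CD45-negative, CD31-positive and podoplanin-positive from the dura of 3-month-old female C57BL/6 mice, given as C57BL/6J in the study's methods. The Naive group (5 libraries) had no stress, and the SCVS group (5 libraries) had 6 days of sub-chronic variable stress, in which foot shock, tail suspension and restraint were given on different days. Each library was a pool of 3 to 4 animals, and the tissue of both groups was digested in a buffer with actinomycin D, an inhibitor of transcription. Total counts lay between 9984743 and 14094155 per library. Levels are given as CPM, a gene's count scaled to a library total of 1000000, and 3 counts, used as the limit of detection, were worth 0.213 to 0.3005 CPM. Reads after amplification are not independent molecules, so this limit and the binomial intervals below cover counting error only.

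The mitochondrial genome is a small circle that encodes core subunits of the respiratory chain and of ATP synthase, together with the rRNAs and tRNAs needed to translate them inside the organelle. Both strands are transcribed as long precursors, which are cut at the tRNAs that lie between most of the other genes. Everything needed for this expression apart from these RNAs, including the polymerase, is encoded in the nucleus and imported. Endothelial cells are known for drawing much of their ATP from glycolysis.

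The libraries differed in their lymphatic markers, of which podoplanin (Pdpn) was also used in the sort. Summed over 9 lymphatic markers, the level was 74.4, 2929, 1068, 1367 and 195.6 CPM in Naive 1 to 5 and 1421, 1176, 3243, 3193 and 470.6 CPM in SCVS 1 to 5. Naive 1 had more than 3 counts on 5 of the 9 markers, with 0 counts on Prox1, Pdpn and Tbx1. Naive 5 had more than 3 counts on 7 of 9, with 0 counts on Tbx1 and 1 count on Lyve1. Prox1 in Naive 5 was 63.2 CPM, against 0 to 69.4 CPM in the other Naive libraries. Pdpn in Naive 5 was 26.3 CPM, against 0 to 77.6 CPM in those libraries. The most abundant lymphatic marker was Flt4 in Naive 1 and Mmrn1 in each of the other 9 libraries. Prox1, the transcription factor that sets lymphatic identity, had 2 counts in SCVS 5 and 15 counts in SCVS 1. The other SCVS libraries had 285 to 2751 counts of Prox1.

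Markers of other cells were also uneven. The 8 neural and glial markers summed to 3407 CPM in Naive 5, against 164.7 to 930.8 CPM in the other Naive libraries and 151.4 to 1869 CPM in SCVS libraries. In Naive 5, 7 of these 8 genes had more than 3 counts, Snap25 was the most abundant (1538 CPM) and Mog had 0 counts. The 8 myeloid markers reached their highest sum in SCVS 4 (5302 CPM, all 8 genes above 3 counts, Lyz2 most abundant), and the 6 erythroid markers found in the table reached theirs in SCVS 5 (4915 CPM, all 6 above 3 counts, Hba-a1 most abundant). The 8 mural markers had their highest sum in Naive 1 (7681 CPM, 6 genes above 3 counts, Cspg4 and Des at 0), most of it Rgs5 (5664 CPM), which was itself higher in SCVS 2 (5812 CPM). Pan-endothelial markers summed to 568.6 CPM in Naive 5 and to between 3907 and 8468 CPM in the other 9 libraries. Blood endothelial markers summed to 312.8 CPM in Naive 5 and to at least 5219 CPM elsewhere. In every library this sum was higher than that of the lymphatic markers, which was 195.6 CPM in Naive 5 and at most 3243 CPM elsewhere. Sums over different genes do not give the share of each cell type. Fibroblast markers lay between 81.6 and 2344 CPM.

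Mitochondrial genes took a large share of all counts in both groups, and the groups did not separate. The share was 14.02%, 9.001%, 9.64%, 12.3% and 16.6% in Naive 1 to 5 and 9.29%, 3.73%, 16.4%, 11.6% and 15.4% in SCVS 1 to 5. The Naive range lay wholly within the SCVS range apart from Naive 5, and SCVS 2 was the lowest library of all. The mean share was 12.3% ± 3.15 in Naive and 11.3% ± 5.10 in SCVS mice (SD, n = 5 each), a difference of −1.03 percentage points that is smaller than the SD of either group. The 95% binomial interval (Wilson) of a single library's share was at most 0.0448 percentage points wide. In bulk libraries, fewer cells with many mitochondrial transcripts and fewer such transcripts per cell cannot be told apart.

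The direction of the difference in share rested on single libraries. Without SCVS 2 the difference was 0.858 percentage points and without Naive 5 it was 0.0488, both higher in SCVS mice. Naive 5 and Naive 1, which had the highest mitochondrial shares of their group, also had its lowest sums of lymphatic markers. In the SCVS group, SCVS 3 had the highest share, and its sum of lymphatic markers was the highest of all 10 libraries. SCVS 5, with the next highest share (15.4%), had the lowest sum of the SCVS group (470.6 CPM). Leaving out Naive 1 and Naive 5 lowers the mean Naive share by construction; it was then 10.3%, and the difference was 0.978 percentage points, higher in SCVS mice. The part that cells other than LECs have in the mitochondrial share was not tested.

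**Figure D1:**
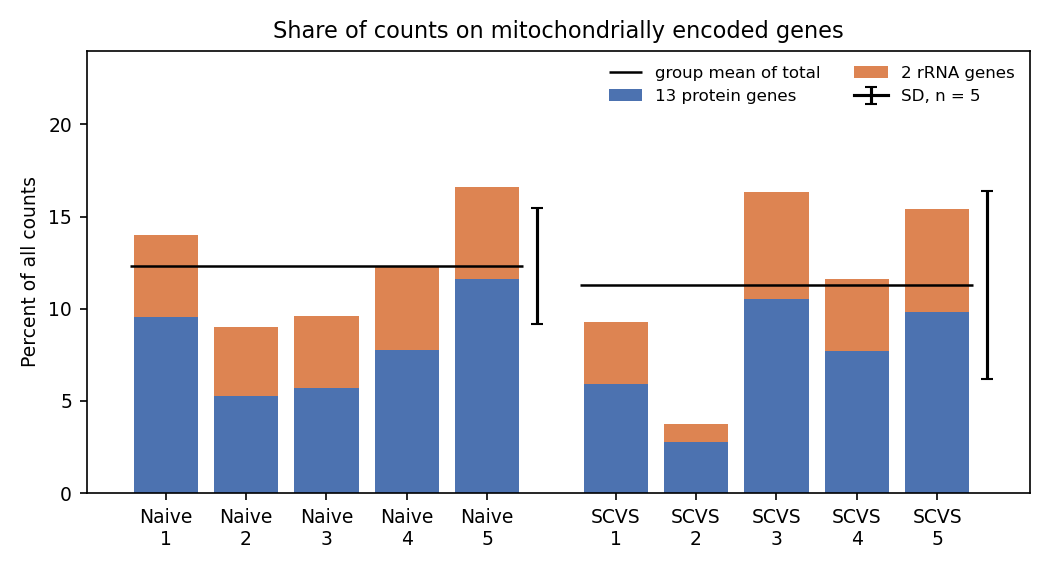
Percent of all counts on mitochondrially encoded genes in each library (vertical axis, from 0), split into the 13 protein genes and the 2 rRNA genes, with the mean of each group as a horizontal line and its SD as an error bar (n = 5 each). SCVS 2 (3.73%) is the lowest bar and Naive 5 (16.6%) the highest, and the group means of 12.3% and 11.3% lie within each other's SD.

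Of the 37 genes, 16 had counts, and all 16 had more than 3 counts in each of the 10 libraries: the 13 protein genes, both rRNA genes and the tRNA gene mt-Tp. Among all 14815 genes that passed the filter on low counts (more than 5 counts in at least 3 libraries), 5639 (38.1%) had more than 3 counts in each library. The most abundant gene was mt-Rnr2 in 9 libraries and the nuclear RNA Malat1 in SCVS 2. Between 5 and 8 of the 10 most abundant genes were mitochondrial in 9 libraries, and 3 were in SCVS 2. The 16 genes varied less between libraries than most tested genes. Their median coefficient of variation was 34.2% in Naive and 48.3% in SCVS mice, against 93.5% and 86.6% over all tested genes, but over the 1966 tested genes with a mean of at least 100 CPM it was 45.1% and 39.1%.

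The rRNA genes encode the RNA of the small (mt-Rnr1) and large (mt-Rnr2) subunits of the mitochondrial ribosome. mt-Rnr2 (ENSMUSG00000064339, positions 1094 to 2675 of the mitochondrial chromosome, plus strand) had 31518, 28215, 28259, 31724 and 35066 CPM in Naive 1 to 5 and 24608, 7260.0, 42711, 27766 and 39719 CPM in SCVS 1 to 5. The Naive libraries lay close together, and the SCVS libraries spread to both sides of them. mt-Rnr1 (ENSMUSG00000064337, 70 to 1024, plus strand) had 12269 ± 2298 CPM in Naive and 10836 ± 5664 CPM in the SCVS group (SD, n = 5 each). Together these genes made up 31.8%, 41.2%, 40.9%, 36.8% and 29.99% of mitochondrial counts in Naive 1 to 5 and 36.2%, 25.2%, 35.7%, 33.8% and 36.1% in SCVS 1 to 5. SCVS 2 therefore had both the smallest mitochondrial share and the smallest portion of rRNA within it.

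Complex I, the NADH dehydrogenase through which electrons enter the respiratory chain, has 7 subunits encoded here. Their genes held 26.0% ± 3.57 of mitochondrial counts in Naive and 26.6% ± 2.36 in SCVS mice (SD, n = 5 each). Per kb of gene length and averaged over the 10 libraries, mt-Nd1 had 11365 CPM, mt-Nd4 6268 CPM, mt-Nd2 4203 CPM, mt-Nd5 3158 CPM and mt-Nd6 2561 CPM, whereas mt-Nd4l had 67.3 CPM and mt-Nd3 22.6 CPM. mt-Nd6 (ENSMUSG00000064368, 13552 to 14070) is the one protein gene on the minus strand, opposite to the others. It had 2338, 765.05, 781.5, 1389 and 2313 CPM in Naive 1 to 5 and 1119, 550.4, 1421, 1252 and 1360.1 CPM in SCVS 1 to 5. Naive 1 and Naive 5 were the high libraries, and the remaining Naive values lay inside the SCVS range. mt-Nd5 overlaps mt-Nd6 by 14 bases on the opposite strand, and the use of strand in counting is not given in the sources used here. The ratio of mt-Nd6 to mt-Nd5 counts was 23.8% ± 2.44 in Naive and 22.6% ± 3.45 in SCVS mice (SD, n = 5 each).

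mt-Nd3 (ENSMUSG00000064360, 9459 to 9806, plus strand) was the lowest of the protein genes. It had 9.88, 4.39, 6.51, 7.22 and 10.4 CPM in Naive 1 to 5 and 7.59, 2.63, 15.4, 8.09 and 6.41 CPM in SCVS 1 to 5. SCVS 3 was the highest and SCVS 2 the lowest, so the Naive values lay inside the SCVS range. The mean of mt-Nd4l (ENSMUSG00000065947, 9877 to 10173) was 22.0 ± 7.92 CPM in Naive and 18.0 ± 9.02 CPM in the SCVS group (SD, n = 5 each). mt-Nd4l shares its last 7 bases with mt-Nd4 (ENSMUSG00000064363, 10167 to 11544).

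mt-Cytb, the cytochrome b of complex III, was the most abundant protein gene per length. This gene (ENSMUSG00000064370, 14145 to 15288, plus strand) had 31183, 17104, 17228, 23790.4 and 34193 CPM in Naive 1 to 5 and 19402, 8581, 37232, 24128 and 30507 CPM in SCVS 1 to 5. SCVS 3 stood at the top and SCVS 2 at the bottom. Averaged over all libraries and per kb of gene, mt-Cytb had 21272 CPM and mt-Rnr2 18764 CPM. mt-Cytb held 19.8% ± 1.66 of mitochondrial counts in Naive and 21.4% ± 1.39 in SCVS mice (SD, n = 5 each), and the groups overlapped.

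The genes of complex IV (cytochrome c oxidase, which passes electrons to oxygen) and of complex V (ATP synthase) were uneven among themselves. mt-Co1 (ENSMUSG00000064351, 5328 to 6872), the catalytic subunit of complex IV, had 21501 ± 5932 CPM in Naive and 19686 ± 8657 CPM in the SCVS group (SD, n = 5 each). mt-Co2 (ENSMUSG00000064354, 7013 to 7696), which takes electrons from cytochrome c, had 249.7 ± 71.7 and 229.7 ± 112 CPM, and mt-Co3 (ENSMUSG00000064358, 8607 to 9390) had 152.2 ± 58.7 and 126.0 ± 61.8 CPM in Naive and SCVS mice (SD, n = 5 each). Per kb of gene, this was 13329 CPM for mt-Co1, 350.5 CPM for mt-Co2 and 177.4 CPM for mt-Co3 over all libraries, although the complex holds these subunits in equal number.

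mt-Atp6 (ENSMUSG00000064357, 7927 to 8607), a subunit of the proton channel of ATP synthase, had 453.4, 229.7, 287.2, 375.01 and 516.3 CPM in Naive 1 to 5 and 294.4, 118.5, 567.5, 330.4 and 438.8 CPM in SCVS 1 to 5. The order of libraries was close to that of mt-Cytb, with SCVS 3 highest and SCVS 2 lowest. mt-Atp8 (ENSMUSG00000064356, 7766 to 7969) had 37.5 ± 12.8 CPM in Naive and 37.4 ± 19.4 CPM in the SCVS group (SD, n = 5 each). mt-Atp8 and mt-Atp6 lie on one bicistronic messenger and overlap, and their counts are uncertain because a read in the overlap could belong to either gene. The shared 43 bases (chrM:7927-7969, plus strand, mm9), shown because they are read in different frames and start with the first codon of mt-Atp6, are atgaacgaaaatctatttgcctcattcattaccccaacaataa.

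All 16 genes had their lowest CPM in SCVS 2. The highest CPM was in Naive 5 for 7 genes, in SCVS 3 for 6, in Naive 1 for 2 and in SCVS 5 for mt-Rnr1. The ratio of the highest to the lowest library lay between 3.94 and 7.42. No gene had groups that did not overlap (0 of 16), against 93 of 14815 tested genes (0.628%).

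No mitochondrial gene passed the test between SCVS and Naive mice. In edgeR's quasi-likelihood test over all 14815 genes, taking an adjusted p (Benjamini-Hochberg) under 0.1 as a call, 0 of the 16 genes were called, against 0 (0%) of all tested genes. At an unadjusted p under 0.05 there were 0 mitochondrial genes and 460 tested genes. DESeq2 called 0 of the 16 genes against 114 of the 14815 genes (0.769%), of which 817 were given no p by DESeq2, and limma with voom called 0 of 16 against 2. With so few calls over all genes, these counts show nothing particular to the mitochondrial genes. The median log2 fold change of the 16 genes was −0.14, with 15 values below 0 and 1 above, and over all tested genes it was −0.03.

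In edgeR's main fit the largest log2 fold change was that of mt-Nd6, at −0.44 (standard error 0.42, 95% interval −1.35 to 0.47; edgeR, unadjusted p = 0.309, adjusted p = 1.00). mt-Nd6 was the one gene of the 16 whose value was larger than its standard error in this fit. Leaving out 1 library at a time, its value ranged from −0.62 to −0.21, and in limma with voom mt-Nd6 had −0.35 against −0.76 for mt-Rnr2. mt-Nd4l had −0.31 (standard error 0.83), mt-Nd2 −0.30 (0.40), mt-Co3 −0.29 (0.49) and mt-Nd5 −0.27 (0.42). The rRNA genes had −0.19 (0.44) for mt-Rnr1 and −0.13 (0.39) for mt-Rnr2. The only value above 0 was 0.05 for mt-Nd3, with a standard error of 1.12. The values closest to 0 among the abundant genes were −0.06 for mt-Cytb (0.38) and −0.09 for mt-Nd4 (0.38). Every interval included 0, and the intervals of the genes with the smallest standard errors, such as −0.94 to 0.65 for mt-Co1 (log2 fold change −0.14), still allow differences of moderate size in either direction.

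The direction and size depended on single libraries and on the tool. Without SCVS 2 the median over the 16 genes was 0.09, with 11 genes higher in SCVS mice, and without Naive 5 it was 0.01, with 9 higher. In limma with voom the median was −0.36 and all 16 genes were on the lower side in SCVS mice. Setting the library size to the total of the mitochondrial genes brings their median close to 0 by construction (0.02), and it moved the median of all tested genes to 0.50.

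**Figure D2:**
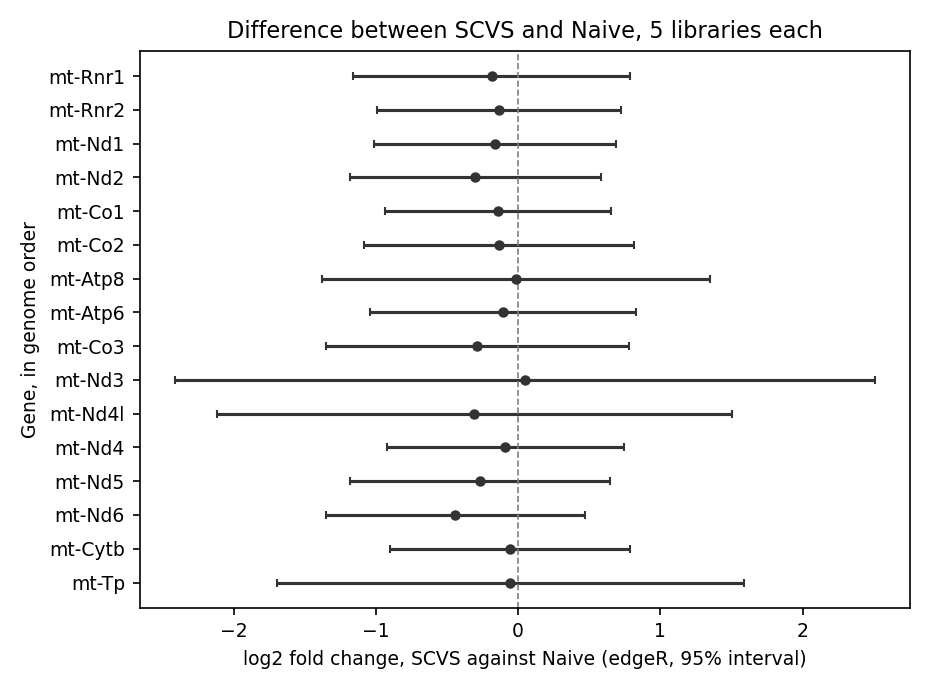
Log2 fold change of each of the 16 detected mitochondrial genes between SCVS and Naive mice (horizontal axis; vertical axis, genes in genome order), with the 95% interval from edgeR's quasi-likelihood fit (5 libraries a group). Points below 0 are lower in SCVS, all 16 intervals cross 0, and the widest is that of mt-Nd3 (−2.42 to 2.51).

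The levels differed with the position of the genes on the mitochondrial chromosome far more than between the groups. Over all libraries, the 6 genes mt-Co2, mt-Atp8, mt-Atp6, mt-Co3, mt-Nd3 and mt-Nd4l had 22.6 to 530.3 CPM per kb, and they lie side by side. The 7 rRNA and protein genes mt-Rnr1, mt-Rnr2, mt-Nd1, mt-Nd2, mt-Nd5, mt-Nd6 and mt-Cytb had 2561 to 21272 CPM per kb. In no library did these sets overlap, with a highest single value of 833.4 CPM per kb among the 6 genes and a lowest of 1061 CPM per kb among the 7. The medians differed by a factor of 62.97 (180.5 and 11365 CPM per kb), and both groups of mice showed the step.

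The 6 low genes are the rRNA and protein genes that lie wholly within the longest nuclear copy of the mitochondrial sequence. In a search of the mm9 nuclear genome with the mitochondrial chromosome, 8 nuclear copies of at least 95% identity and 100 bases were found; the sources name both mm9 and GRCm38 as the build of the counts, and the nuclear positions below hold for mm9. The longest lies on chromosome 1 from 24618374 to 24623027 on the minus strand, and copies mitochondrial positions 6390 to 11042 at 99.9% identity over 4654 aligned bases. mt-Co1 and mt-Nd4 lie partly within it, with 483 and 876 of their bases, and the 7 abundant genes above lie outside it. A second copy, on chromosome 2 from 22442808 to 22446054, holds positions 4441 to 7699 at 97.4% identity. Its span takes in mt-Co1 and part of mt-Nd2, which were abundant, as well as mt-Co2. How reads that match both the mitochondrial chromosome and such a copy were counted is not given in the sources used here, so the counts of the 6 genes are uncertain, and the part of the shared sequence in their levels was not tested.

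The copy on chromosome 1 differs from the mitochondrial sequence by 2 substitutions and 1 inserted base. Counted from 1 on the mitochondrial chromosome, with the mitochondrial base first, the substitutions are A6393T, in mt-Co1 close to the end of the copy, and T9461C, in mt-Nd3. The inserted base lies in the tRNA gene mt-Tr. No difference was found in mt-Co2, mt-Atp8, mt-Atp6, mt-Co3, mt-Nd4l or the copied part of mt-Nd4. The sequences around T9461C show how little there is to tell the places apart, with the differing base in capitals, both from mm9 and written in the direction of the mitochondrial plus strand.
Mitochondrial sequence, chrM:9446-9476: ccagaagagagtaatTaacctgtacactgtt
Nuclear copy, chromosome 1, centered on 24619956, read on the minus strand: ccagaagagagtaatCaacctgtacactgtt

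**Figure D3:**
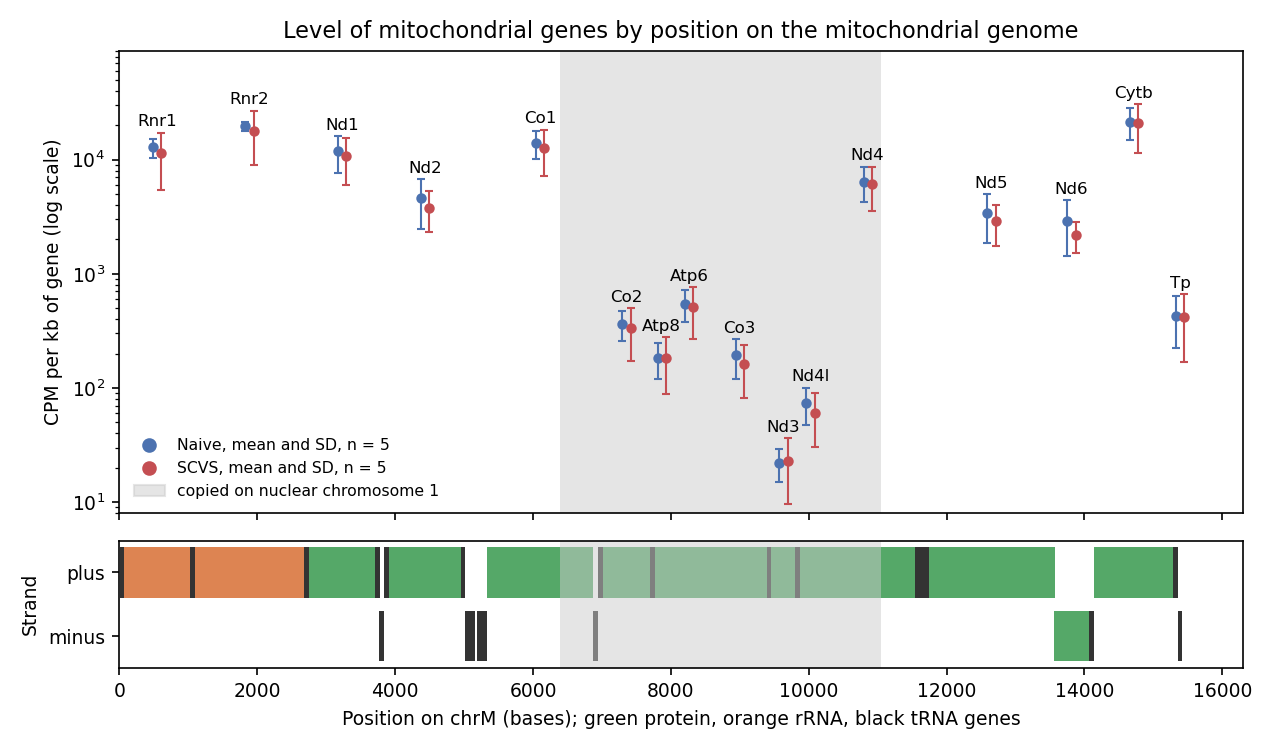
Mean CPM per kb of gene with SD (vertical axis, log scale; n = 5 a group) for the 16 detected genes against position on the mitochondrial chromosome (horizontal axis, bases), above a map of all 37 genes by strand; gray marks the stretch copied on nuclear chromosome 1. Averaged over all 10 libraries, the 6 genes wholly inside the gray stretch lie at 22.6 to 530.3 CPM per kb. The other rRNA and protein genes lie at 2561 CPM per kb or more in that average, and single group means can lie outside these limits.

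A list of 10 predicted genes, drawn up as candidates for nuclear copies of mitochondrial sequence, also had counts. Of these, 3 (Gm10222, Gm13340 and Gm13341) lie within the copies found here, and the other 7 were not placed on mm9 here. Gm10925 had 212.0 ± 63.9 CPM in Naive and 204.4 ± 100.2 CPM in the SCVS group (SD, n = 5 each), and Gm28437 had 205.2 ± 80.1 and 171.4 ± 84.3 CPM. Gm28661 had 92.3 ± 26.7 and 85.2 ± 39.1 CPM, Gm29216 85.9 ± 31.5 and 70.4 ± 30.0 CPM, Gm28438 38.8 ± 10.8 and 47.2 ± 26.7 CPM, and Gm28439 29.7 ± 10.1 and 27.6 ± 12.2 CPM. The lower ones were Gm10222, with 6.06 ± 1.59 and 4.88 ± 1.96 CPM, Gm13340, with 1.95 ± 0.345 and 1.68 ± 0.882 CPM, Gm13341, with 0.48 ± 0.42 and 0.443 ± 0.337 CPM, and Gm3839, with at most 5 counts in a library. Of these 10 genes, 8 were lowest in SCVS 2, as the mitochondrial genes were. None of the 9 tested was called by edgeR's quasi-likelihood test or by DESeq2, at the shares of all tested genes given above.

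For some of these genes the count can be set against that of a mitochondrial gene. Gm10222 lies on chromosome 1 from 24619243 to 24619539 (mm9), inside the long copy, and corresponds to mitochondrial positions 9877 to 10173, those of mt-Nd4l. Its count was 0.284 ± 0.0411 times that of mt-Nd4l in Naive and 0.291 ± 0.0649 times in SCVS mice (SD, n = 5 each). Gm10925, which was not placed on mm9, is a pseudogene in RefSeq (GRCm38) with mt-Atp6 among its synonyms. It had 0.533 to 0.609 times the count of mt-Atp6 over the 10 libraries, with 0.572 ± 0.0271 in Naive and 0.5795 ± 0.0190 in SCVS mice (SD, n = 5 each), while the CPM of mt-Atp6 itself ranged from 118.5 to 567.5. Gm13340, which covers the whole of mt-Co1 in the copy on chromosome 2, had at most 33 counts in a library. All 10 predicted genes together took 0.0203% to 0.0969% of a library's counts.

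tRNA genes were nearly absent from the counts. Of the 22 genes, 21 had 0 counts in all 10 libraries. They are 59 to 75 bases long and lie packed between other genes, 14 of the 22 with no free base on at least 1 side, and 5 of them lie in the stretch copied on chromosome 1. The read length in the study's methods is longer than any of them. How reads that also cover a neighboring gene were counted is not given in the sources used here. The 0 counts therefore set no upper limit on the level of these tRNAs. The exception was mt-Tp, the proline tRNA gene (ENSMUSG00000064372, 15356 to 15422, minus strand), with 27.4, 21.5, 22.9, 19.5 and 52.8 CPM in Naive 1 to 5 and 13.9, 7.48, 46.9, 35.97 and 35.4 CPM in SCVS 1 to 5. Naive 5 stood apart from the other Naive libraries, and the groups overlapped (log2 fold change −0.05, standard error 0.75). mt-Tp borders the control region, the 877 bases from position 15423 on that hold no gene. mt-Tf, on the other side of that region, had 0 counts, and no other tRNA gene has more than 32 free bases on a side. With reads longer than the gene and strand use not given, the counts of mt-Tp need not come from the tRNA itself. Their origin was not tested for mt-Tp. Its sequence, shown as the one detected tRNA gene (chrM:15356-15422, minus strand, mm9), is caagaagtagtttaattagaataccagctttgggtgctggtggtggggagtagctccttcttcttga.

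Nuclear genes that transcribe, process and maintain mitochondrial DNA and RNA were measured less evenly. Of 57 such factors, 55 passed the filter on low counts, 16 had more than 3 counts in each library and 37 had 0 counts in at least 1 library. In edgeR's quasi-likelihood test 0 of the 55 were called, against 0 (0%) of all tested genes, and DESeq2 called 0 against 114 (0.769%) and limma with voom 0 against 2. At an unadjusted p under 0.05 there were 0 of 55 factors and 460 of 14815 tested genes in edgeR. In limma with voom there were 4 of 55 factors and 736 of 14815 tested genes. In edgeR 30 were higher in SCVS mice and 25 were lower. The median of their log2 fold changes was 0.05, against −0.03 over all tested genes. This balance depended on single libraries and on scaling. Without Naive 1, 23 factors were higher and 31 lower (median −0.15), and without Naive 3 it was 32 and 23 (0.18). With the library size set to the mitochondrial total, 42 were higher and 13 lower (0.55).

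By role, the factors were counted in edgeR's main fit only, with the number higher in SCVS mice first and the number lower second. They were 4 and 2 for transcription, 3 and 1 for cutting of precursor RNA and 6 and 7 for RNA stability. The other roles had 6 and 8 for rRNA and tRNA modification, 8 and 3 for replication of mitochondrial DNA and 3 and 4 for regulators of biogenesis. Tfam (ENSMUSG00000003923), which packages mitochondrial DNA and starts its transcription, had 2, 249, 744, 407 and 365 counts in Naive 1 to 5 and 301, 389, 633, 1 and 319 counts in SCVS 1 to 5. Its log2 fold change was 0.03 (standard error 1.30), with at most 2 counts in Naive 1 and SCVS 4. Polrmt (ENSMUSG00000020329), the mitochondrial RNA polymerase, had 5.61 ± 9.85 CPM in Naive and 3.97 ± 6.00 CPM in the SCVS group (SD, n = 5 each; log2 fold change −0.67, standard error 1.98). For Polrmt the direction turned without Naive 3 (1.49) and in limma with voom (0.08). Ppargc1a (ENSMUSG00000029167), a coactivator of mitochondrial biogenesis, had 12.6 ± 13.7 and 21.6 ± 32.5 CPM (SD, n = 5 each; log2 fold change 0.73, standard error 1.91). For Ppargc1a the direction turned in limma with voom (−0.90) and with same-numbered libraries as blocks (−3.19).

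The factors with the smallest p in edgeR's main fit were Trmt61b, Prorp and Rrm2b. None of these was among the 4 factors with an unadjusted p under 0.05 in limma with voom. Trmt61b (ENSMUSG00000085492), which methylates mitochondrial tRNA, had 477, 0, 467, 206 and 800 counts in Naive 1 to 5 and 61, 16, 8, 0 and 175 counts in SCVS 1 to 5, a log2 fold change of −2.74 (standard error 1.82). Naive 2 had 0 counts and lay within the SCVS range, and the unadjusted p was 0.16 and the adjusted p was 1.00 (edgeR). Prorp (ENSMUSG00000021023), the nuclease that cuts the leading end of mitochondrial tRNAs, had 0 counts in 3 Naive and 2 SCVS libraries (log2 fold change 3.54, standard error 2.58). Rrm2b (ENSMUSG00000022292), a ribonucleotide reductase subunit that supplies nucleotides for mitochondrial DNA, had 39.1 ± 26.3 CPM in Naive and 70.1 ± 52.2 CPM in the SCVS group (SD, n = 5 each; log2 fold change 0.80, standard error 0.64).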

How the data were processed

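The authors amplified RNA with a whole-transcriptome kit, aligned reads with HISAT2 and deposited raw counts per gene, 1 value per library. The submitters' processing notes name cutadapt 1.9.1, HISAT2 2.0.1, HTSeq 0.6.1 and GRCm38, whereas the methods name mm9; annotation release, strand use and treatment of multiply mapped reads are not given in the sources used here. Positions are 1-based from mm9 (GENCODE M1); the 37 mitochondrial genes have the same positions in RefSeq for GRCm38.

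From the deposited counts, CPM were computed from column totals. Genes above 5 counts in at least 3 libraries were fitted with edgeR 4.0.16 (quasi-likelihood, TMM, R 4.3.3). The fit was checked on simulated counts, with 200 genes changed by 4 on the log2 scale. Those counts varied less between libraries than these data (common biological coefficient of variation 1.59). The check therefore does not show how the fit does at this variation or on smaller changes. Alternatives used DESeq2 1.42.0, limma 3.58.1 with voom, other scalings, a replicate block and leaving out libraries. Shares and medians have no test. Nuclear copies were found with BLAST 2.17.0 (word size 28). Named genes were the detected mitochondrial genes and the candidate predicted genes of nuclear copies. Of the factors, they were those called, otherwise the 3 of smallest p in edgeR's main fit, with Tfam, Polrmt and Ppargc1a. Members and lists were chosen with earlier results of these data known. The assignment of libraries to cohorts is not given in the sources used here.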

Additional observations from a re-analysis of the deposited data

Results flagged for a closer look

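In 58 comparisons of a library with the other 4 of its group (CPM of the 16 detected genes and 13 shares and ratios, in each group), 3 libraries lay far from the rest by Dixon's test, which is about as many as chance gives (1 in 20 groups). The CPM of mt-Tp in Naive 5 was 52.8, against 19.5 to 27.4 in the other Naive libraries. The rRNA genes made up 25.2% of mitochondrial counts in SCVS 2, against 33.8% to 36.2% in the other SCVS libraries. The ratio of mt-Rnr2 to mt-Rnr1 counts was 3.18 in Naive 2, against 2.37 to 2.53 in the other Naive libraries, and SCVS 2 had a still higher ratio of 3.38.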

How the results depend on the processing

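None of the 16 mitochondrial genes and none of the 55 tested factors was called under any alternative run, and the lowest adjusted p of a mitochondrial gene was 0.524, with no filter on low counts. Over all genes 0 were called by edgeR under each scaling, filter and library left out, against 114 by DESeq2 and 2 by limma with voom; the cause was not tested.

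Of 270 values recomputed for the 15 rRNA and protein genes, 237 kept their sign. With the library size set to the mitochondrial total, which by construction removes a change common to all of them, 9 of the 16 genes were higher in SCVS mice. Log2 fold changes turned above 0 for 8 genes: 0.026 for mt-Nd1, 0.036 for mt-Co1, 0.0067 for mt-Co2, 0.14 for mt-Atp8, 0.055 for mt-Atp6, 0.12 for mt-Nd4, 0.11 for mt-Cytb and 0.035 for mt-Tp. The values of 7 genes stayed below 0, down to −0.19 for mt-Nd4l and −0.16 for mt-Rnr1, mt-Nd3 stayed above 0 at 0.21, and the median over the 16 genes was 0.016. In limma with voom the median was −0.36, mt-Rnr2 had −0.76 and mt-Rnr1 −0.69, and mt-Nd3 turned to −0.13.

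Leaving out 1 library at a time, the difference in share ranged from −2.30 to 0.858 percentage points and the median log2 fold change from −0.36 to 0.094. The genes ranged from −0.37 to 0.087 for mt-Rnr1, −0.34 to 0.13 for mt-Rnr2, −0.39 to 0.066 for mt-Nd1, −0.34 to 0.081 for mt-Co1, −0.39 to 0.10 for mt-Co2, −0.33 to 0.22 for mt-Atp8, −0.37 to 0.13 for mt-Atp6, −0.36 to 0.28 for mt-Nd3, −0.28 to 0.13 for mt-Nd4 and −0.29 to 0.17 for mt-Cytb. The other 5 rRNA and protein genes stayed below 0. The range was −0.51 to −0.029 for mt-Nd2, −0.51 to −0.037 for mt-Co3 and −0.56 to −0.063 for mt-Nd4l. It was −0.44 to −0.039 for mt-Nd5 and −0.62 to −0.21 for mt-Nd6. The tRNA gene mt-Tp turned above 0 without Naive 5, without SCVS 1 and without SCVS 2. Without Naive 1 and Naive 5, the libraries lowest in lymphatic markers, an alternative chosen after seeing the data that leaves out the highest Naive shares, the median was 0.24 and the difference in share 0.978 percentage points; the cause was not tested. The other 5 alternatives for the share kept it lower in SCVS mice, but not all of them could test this. A replicate block leaves the difference of group means unchanged by construction (−1.03 percentage points). Adding the counts of the nuclear copies (−1.04) or keeping only genes that pass the filter (−1.02) hardly moved it. The difference was −0.649 with protein genes only and −1.15 without the 10 most abundant other genes.

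The sources used here give same-numbered libraries no shared origin. Their deviations correlated between −0.0089 and 0.133, and 7 of the 10 libraries (4 Naive and 3 SCVS) correlated best with their own number in the other group, a hint from the data and not the design. With a replicate block 0 genes were called, 266 had an unadjusted p under 0.05, the mitochondrial median was −0.28, mt-Nd3 had −0.14, and mt-Nd4l (−0.47) was further from 0 than mt-Nd6 (−0.37).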
